A study of Mus musculus with 6 samples.

Results

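Enzymes that conjugate or oxidise small molecules, other than the cytochromes P450, were compared between the lungs of wild-type and Scnn1b-transgenic (Scnn1b-Tg) mice. Members were chosen by gene symbol, not by their values, but with earlier results of these data known. They are every gene with its own probe set whose symbol begins with Gst, Mgst, Ugt1, Ugt2, Sult, Aldh, Aox or Fmo and goes on with a digit or letter. Fibromodulin (Fmod) and the domain protein gene Gstcd share these letters but encode no enzyme of these families and were left out. This gave 76 members of 19935 genes: 19 glutathione transferases, 3 microsomal glutathione transferases, 8 UDP-glucuronosyltransferases, 16 sulfotransferases, 21 aldehyde dehydrogenases, 4 aldehyde oxidases and 5 flavin monooxygenases. No Ugt1 gene was a member (0), because the probe set of that locus lists several symbols.

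There were 6 arrays of total RNA from whole lung, 3 of wild-type mice and 3 of mice that carry a transgene for Scnn1b, which encodes the β chain of ENaC, a sodium channel of airway epithelium. All mice were of C57BL/6 background. The study looked for genes with a part in emphysema. Age, sex and the promoter that drives the transgene are not given in the labels, nor whether each sample was a separate animal, so p-values measure only the spread between these samples. Values are RMA intensities on a linear scale, a measure of probe brightness, and levels of different genes cannot be set against each other.

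These families clear reactive and foreign molecules from tissue. Flavin monooxygenases, aldehyde oxidases and aldehyde dehydrogenases add oxygen or oxidise aldehydes, and some aldehyde dehydrogenases make retinoic acid, a regulator of lung growth and repair. Transferases then attach glutathione, sulfate or glucuronic acid, which makes products easier to pump out. In the mouse lung, club cells of the distal airway are a well-known site of such enzymes, and the transcription factor NRF2 switches on many glutathione transferase genes through the antioxidant response element.

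Scnn1b averaged 139.7 ± 31.9 on the wild-type arrays and 1422 ± 98.3 on the Scnn1b-Tg arrays (SD, n = 3 each), with the arrays of the genotypes fully apart. Array medians were 47.6 to 47.8 in wild type and 48.3 to 48.5 in Scnn1b-Tg, so they too were apart by genotype. The lowest value on an array was 18.3 to 18.6. Wild type replicate 2 stood apart on the first principal component (16.3, the others -8.91 to 5.46) and Scnn1b-Tg replicate 3 on the second (13.3, the others -8.03 to 2.47). Markers of the cell types of the lung were above the array floor, among them Sftpc, Ager, Pecam1 and Scgb1a1.

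No member passed the threshold of an adjusted p under 0.05 in the limma fit over all genes. The count was 0 of 76 higher and 0 of 76 lower, against 0.00502% and 0% of all genes tested, that is, 1 gene, Scnn1b. At an unadjusted p under 0.05, 5 members were on the higher side (6.58%, against 3.96% of all genes) and 5 on the lower side (6.58%, against 2.05%). The 3 Scnn1b-Tg arrays lay wholly above the 3 wild-type arrays for 4 members (5.26%, against 6.26% of all genes) and wholly below for 6 (7.89%, against 4.41%). The share with separate groups was near that of all genes on the higher side and above it on the lower side, by a few genes. Of the 6 on the lower side Fmo9, Sult1c1 and Sult6b1 had a mean intensity under 30. At the unadjusted threshold the share on the lower side was above that of all genes, by a count of a few genes.

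The members' log2 fold changes (Scnn1b-Tg minus wild type, and called differences from here on, always on the log2 scale) had a median of -0.01, against 0.01 over all genes. They ran from -0.65 to 0.31, and 55 of 76 (72.4%) were smaller than 0.1 in size, against 79.1% of all genes. The 95% confidence interval lay within 0.5 of 0 for 68 members (89.5%, against 97.1% of all genes) and within 1 for 75. The exception was Gsta3, whose interval reached -1.12. Of the members 28 (36.8%, against 25.7% of all genes) had a mean intensity under 30, close to the floor.

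**Figure D1:**
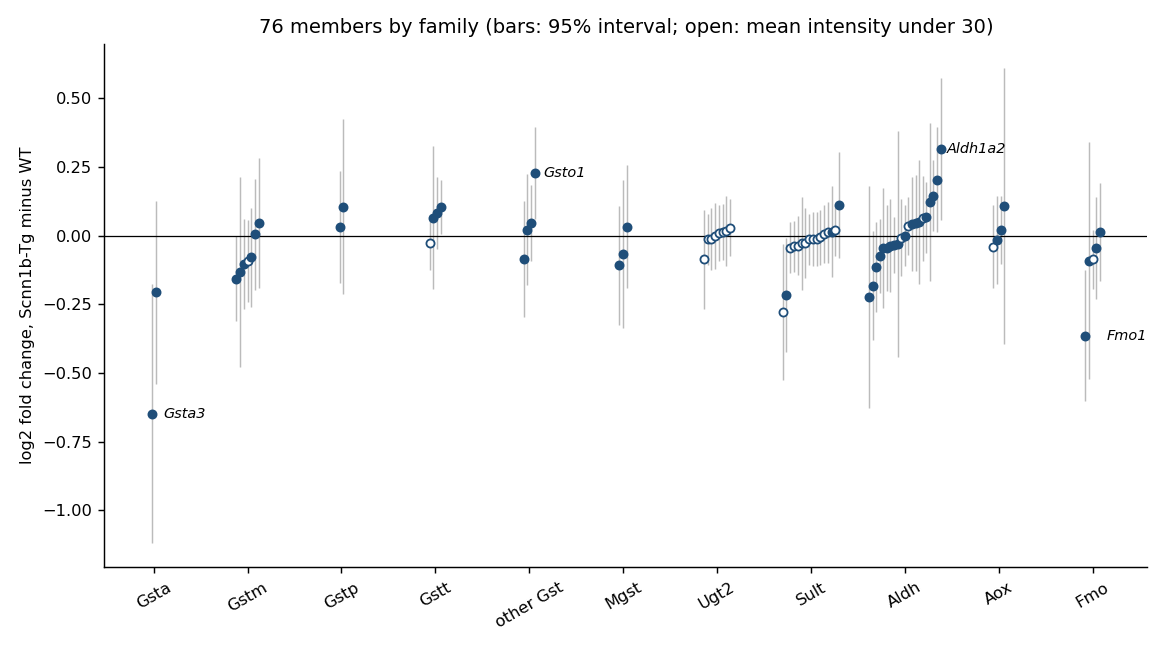
Log2 fold change (Scnn1b-Tg minus WT, y axis) of each of the 76 members with its 95% interval from limma, by family (x axis); open circles are members with a mean intensity under 30. Most points lie within 0.1 of 0, and Gsta3 (-0.65), Fmo1 (-0.36), Aldh1a2 (0.31) and Gsto1 (0.23) are among those farthest from it.

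The alpha-class glutathione transferases had the most negative member. These cytosolic enzymes conjugate glutathione to electrophiles, and Gsta3 is known for detoxifying aflatoxin epoxide in mice. Gsta3 had intensities of 135, 247 and 169 on wild-type replicates 1, 2 and 3, and of 114, 107 and 120.5 on the Scnn1b-Tg replicates. All Scnn1b-Tg arrays lay below all wild-type arrays, and wild type replicate 2 was far above the rest. The means were 184 ± 57.3 and 114 ± 6.90 (SD, n = 3 each), so the spread was wide in wild type and narrow in Scnn1b-Tg. This is a difference of -0.65 ± 0.20 (SE), with a 95% interval of -1.12 to -0.18 and an adjusted p of 0.694. Without wild type replicate 2 it was -0.41, and without wild type replicate 1 it was -0.85. In whole lung, fewer cells of a type and less RNA per cell cannot be told apart.

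Gsta4, which conjugates the lipid peroxidation product 4-hydroxynonenal and is the other member of the class, had 293, 420 and 331 in wild type and 266, 301 and 332 in Scnn1b-Tg. The groups overlapped, with wild type replicate 2 again the highest array. Its difference was -0.21 ± 0.14 (SE), with an interval of -0.54 to 0.13. Omitting wild type replicate 2 gave -0.06, and omitting replicate 1 gave -0.32.

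The promoter of Gsta3 is shown because it holds a match to the core of the antioxidant response element, TGACNNNGC, in capitals, from 121 to 113 bases before the start of the gene. The 250 bases before the start (RefSeq, GRCm38.p6, chr1:21240335-21240584, plus strand) read 5′ to 3′:
Gsta3: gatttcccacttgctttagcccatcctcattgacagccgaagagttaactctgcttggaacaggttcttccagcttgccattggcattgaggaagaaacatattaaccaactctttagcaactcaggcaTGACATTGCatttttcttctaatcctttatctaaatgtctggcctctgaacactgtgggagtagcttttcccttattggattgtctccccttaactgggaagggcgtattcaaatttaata
On either strand this motif occurred in 10.2% of all 32851 promoter windows of this length, and in 6 of the 81 windows (7.41%) of the 66 members that had a window. The variant TGAGNNNGC, for which overlap with the first was not excluded, occurred in 14.4% of all windows and in 16 of the members' (19.8%). Besides Gsta3, the first motif was found in Aldh1a2, Aldh9a1, Gstm5, Gstm7 and Mgst1.

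The mu class holds 7 members, all in 1 cluster on chromosome 3, and 5 of their log2 fold changes were negative (median -0.09, from -0.16 to 0.05). Gstm1, a major transferase of this class, had 223, 258 and 258 in wild type and 219.8, 224.5 and 217 in Scnn1b-Tg. Scnn1b-Tg replicate 2 lay just above the lowest wild-type array, so the groups overlapped. The fit gave a difference of -0.16 ± 0.07 (SE), with an interval that ended at -0.0023 and an adjusted p of 0.822. Gstm5 was -0.13 ± 0.15, and its highest array was wild type replicate 1 (76.3, the others 50.8 to 57.9); without that array it was 0.04. Gstm3 was read from the brighter of its 2 probe sets (-0.08 ± 0.08), and the dimmer gave -0.13 ± 0.07. Genes of this class are similar in sequence, and probe sets can share signal between them.

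The other transferase classes had small positive medians, except the microsomal one. Gsto1, an omega-class enzyme that reduces dehydroascorbate and methylated arsenic, had 270.05, 251 and 267 in wild type and 279, 329 and 315 in Scnn1b-Tg. Every Scnn1b-Tg array lay above every wild-type array. In the fit the difference was 0.23 ± 0.07 (SE), or 1.17-fold, with an interval of 0.06 to 0.39 and an adjusted p of 0.701. Its neighbour Gsto2 was 0.05 ± 0.06.

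The theta class, which acts on small halogenated compounds among others, has its 4 members side by side on chromosome 10. Gstt2 had 60.6, 58.9 and 59.5 in wild type and 63.5, 63.4 and 65.5 in Scnn1b-Tg. The replicates were tight and did not overlap, for a difference of only 0.10 ± 0.04 (SE). Gstt3 (0.08 ± 0.06) and Gstt1 (0.06 ± 0.11) were also above 0 and overlapped, and Gstt4 (-0.03 ± 0.04) was near the floor. Without wild type replicate 1 Gstt3 was 0.04. The median of the class was 0.07, and without Scnn1b-Tg replicate 3 it was 0.03.

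Gstp1, the pi-class transferase abundant in many epithelia, had 283, 258 and 276 in wild type and 235, 308 and 347 in Scnn1b-Tg. The Scnn1b-Tg arrays lay on both sides of the wild-type arrays. The estimated difference was 0.11 ± 0.13 (SE), and without Scnn1b-Tg replicate 3 it was -0.02. Gstp3 was 0.03 ± 0.09. The mitochondrial and peroxisomal Gstk1 was -0.09 ± 0.09 (-0.03 or -0.16 with wild type replicate 2 or 1 omitted), and Gstz1, which isomerises maleylacetoacetate in tyrosine breakdown, was 0.02 ± 0.09.

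Of the 3 microsomal transferases, membrane enzymes that handle lipid hydroperoxides and leukotrienes, none had separate groups. Mgst1 had 288, 384 and 330 in wild type and 285, 329 and 338 in Scnn1b-Tg, which gives a difference of -0.07 ± 0.11 (SE). Mgst2 was -0.11 ± 0.09, and omitting wild type replicate 2 or 1 gave -0.05 or -0.21. Mgst3 was 0.03 ± 0.09.

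Among flavin monooxygenases, which oxidise nitrogen and sulfur in drugs and dietary amines, Fmo1 had the most negative value. Fmo1 had 993, 1298 and 1212 in wild type and 924, 929 and 852 in Scnn1b-Tg. All Scnn1b-Tg arrays lay below all wild-type arrays, and here wild type replicates 2 and 3 were both high. The means were 1167 ± 157 and 902 ± 42.9 (SD, n = 3 each). This is a difference of -0.36 ± 0.10 (SE), with an interval of -0.60 to -0.13 and an adjusted p of 0.575. Over the 16 alternatives the difference ran from -0.48 to -0.24. Because the groups did not overlap, leaving arrays out could not turn its sign.

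Fmo2, the flavin monooxygenase classically described in lung, lies close to Fmo1 on chromosome 1. It had 1928, 3117 and 2138 in wild type and 2413, 2317 and 1900.4 in Scnn1b-Tg. The groups overlapped widely, and wild type replicate 2 was the highest array. The fit gave a difference of -0.09 ± 0.18 (SE), with an interval of -0.52 to 0.34, and it was 0.11 without wild type replicate 2. Fmo4, also a neighbour, was 0.01 ± 0.08, and Fmo5, on chromosome 3, was -0.05 ± 0.08. Fmo9 was -0.09 ± 0.05 with separate groups, but all its values were between 26.3 and 29.3.

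**Figure D2:**
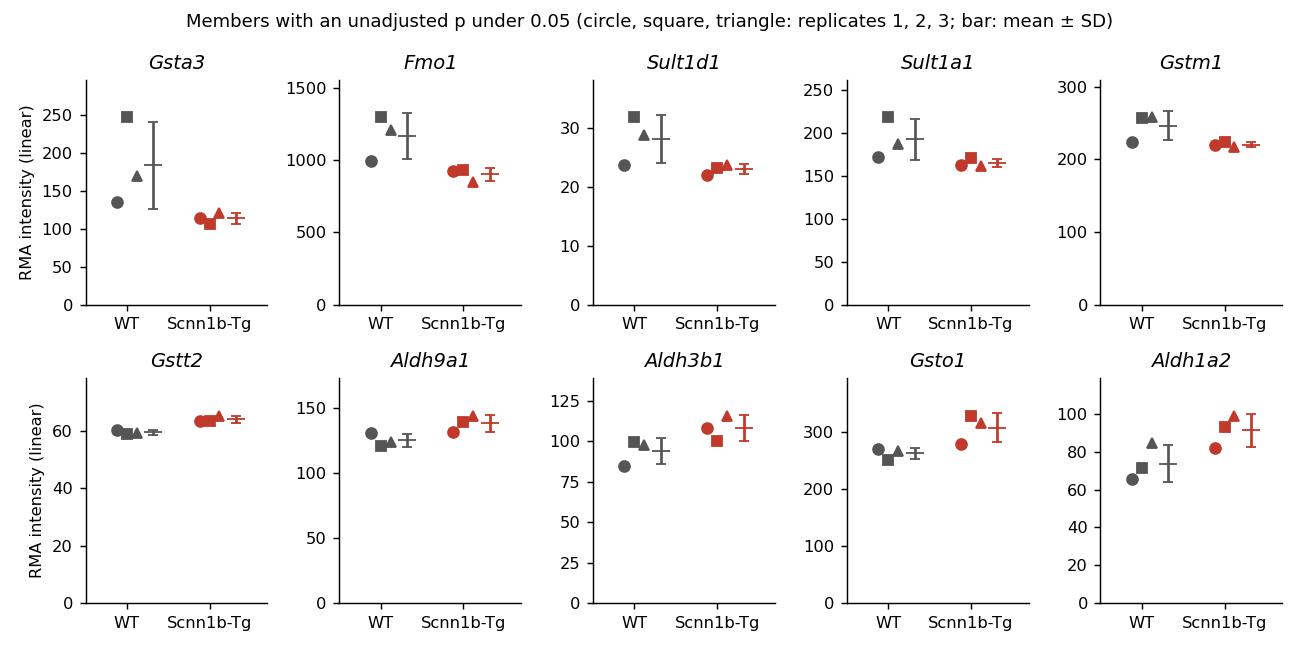
RMA intensity (linear, y axis from 0) of the 10 members with an unadjusted limma p under 0.05 in WT (grey) and Scnn1b-Tg (red); symbols are replicates 1, 2 and 3 and bars the mean ± SD of 3 arrays. Gsta3 and Fmo1 lie lower in Scnn1b-Tg with wild type replicate 2 (grey square) highest, while Gsto1, Gstt2, Aldh3b1 and Aldh9a1 lie higher with small differences.

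The 4 aldehyde oxidases, molybdenum enzymes that oxidise aldehydes and nitrogen heterocycles, form a cluster on chromosome 1 and showed no separation of the groups. Aox3 had 116, 196 and 142 in wild type and 174, 184 and 126 in Scnn1b-Tg. Each genotype held both high and low arrays, so the difference of 0.11 ± 0.21 (SE) has an interval from -0.40 to 0.61. Without wild type replicate 1 it was -0.07. Aox1 was -0.02 ± 0.07, while Aox2 (0.02 ± 0.05) and Aox4 (-0.04 ± 0.06) were near the floor.

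The 21 aldehyde dehydrogenases held the most positive member, Aldh1a2, and were otherwise centred on 0 (median -0.0013, 10 positive and 11 negative). Aldh1a2, also called RALDH2, makes retinoic acid from retinal. It had 65.6, 71.2 and 84.5 in wild type and 81.8, 93.3 and 99.2 in Scnn1b-Tg. Scnn1b-Tg replicate 1 lay below wild type replicate 3, so the groups overlapped. In the fit the difference was 0.31 ± 0.11 (SE), or 1.24-fold, with an interval of 0.05 to 0.57 and an adjusted p of 0.757.

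The other enzymes that make retinoic acid had values near 0. Aldh1a1 had 1211, 1984 and 1765 in wild type and 1545, 1725 and 1491 in Scnn1b-Tg, which gives a difference of -0.03 ± 0.17 (SE). Its wild-type arrays spanned the whole Scnn1b-Tg range, and without wild type replicate 2 the value was 0.12. Aldh1a3 was 0.04 ± 0.07. Whether Aldh1a2 differed from them was not tested.

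Aldh1a7 is a close relative of Aldh1a1 near it on chromosome 19. It had 364, 426 and 414 in wild type and 356, 374 and 379.8 in Scnn1b-Tg, which gives a difference of -0.11 ± 0.07 (SE). The lowest wild-type array fell inside the Scnn1b-Tg range. The 100 bases before each start are shown because they are nearly alike: 94 of the 100 are the same at the same position, against 35 of the 150 further upstream, compared without gaps. Capitals mark TGAGNNNGC, from 85 to 77 bases before the start in both (RefSeq, GRCm38.p6; Aldh1a1 chr19:20601868-20601967, plus strand; Aldh1a7 chr19:20727557-20727656, minus strand):
Aldh1a1: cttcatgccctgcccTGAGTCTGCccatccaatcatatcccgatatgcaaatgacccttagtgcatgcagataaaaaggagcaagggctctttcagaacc
Aldh1a7: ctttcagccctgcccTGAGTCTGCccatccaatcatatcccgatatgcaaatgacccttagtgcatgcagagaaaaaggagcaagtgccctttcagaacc
Because these genes are so similar, part of the signal of each probe set may come from the other.

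A pair of further aldehyde dehydrogenases had Scnn1b-Tg arrays wholly above wild type. Aldh3b1, which oxidises aldehydes from lipid peroxidation, had 84.96, 99.5 and 97.6 in wild type and 108, 100.3 and 116 in Scnn1b-Tg. The gap between the groups was narrow, 99.5 against 100.3. The estimated difference was 0.20 ± 0.08 (SE), with an interval of 0.01 to 0.39 and an adjusted p of 0.795. Without wild type replicate 1 it was 0.13. Aldh9a1, an enzyme of carnitine synthesis, had 131, 121 and 124 in wild type and 131, 139 and 144 in Scnn1b-Tg. Its groups met at 130.6 and 131.5. This is a difference of 0.14 ± 0.05, and 0.09 without wild type replicate 2 and Scnn1b-Tg replicate 3 together.

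Among the members with Scnn1b-Tg arrays wholly above wild type and a RefSeq window, only Aldh9a1 holds the TGACNNNGC motif, so its promoter is shown (capitals, from 87 to 79 bases before the start; RefSeq, GRCm38.p6, chr1:167349741-167349990, plus strand):
Aldh9a1: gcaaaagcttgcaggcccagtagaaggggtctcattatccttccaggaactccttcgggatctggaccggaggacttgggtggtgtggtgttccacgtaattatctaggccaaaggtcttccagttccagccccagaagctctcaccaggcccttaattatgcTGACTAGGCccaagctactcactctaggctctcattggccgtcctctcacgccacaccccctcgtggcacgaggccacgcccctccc
The windows of Aldh3b1 and Gsto1 do not hold these letters. The adjusted p of Aldh9a1 was 0.764, and the motif occurred in 10.2% of all windows. Whether it has a part in the values of Gsta3 or Aldh9a1 was not tested.

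Aldh3b3, close to Aldh3b1 on chromosome 19, had 265, 427 and 355 in wild type and 269, 283 and 331 in Scnn1b-Tg, which gives a difference of -0.22 ± 0.17 (SE). The groups overlapped, and without wild type replicate 2 the value was -0.06 and with replicate 1 omitted instead it was -0.41. Its 2 further probe sets, both dim, gave -0.04 and 0.03. Aldh3a1 was -0.18 ± 0.08 at intensities between 39.8 and 53.1. Aldh2, the mitochondrial enzyme that removes acetaldehyde, was measured tightly: it had 738, 779 and 743 in wild type and 747, 734 and 725 in Scnn1b-Tg. Its difference of -0.03 ± 0.04 has an interval of -0.14 to 0.07. The 12 aldehyde dehydrogenases not named here (of 21) gave values between -0.07 and 0.12.

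Sulfotransferases attach sulfate to phenols, steroids and amines, and most were not far above the array floor. Of 16 members 13 had a mean intensity under 30. Sult1a1, the main phenol sulfotransferase, had 172, 219 and 187 in wild type and 163, 170.5 and 161 in Scnn1b-Tg. All Scnn1b-Tg arrays lay below all wild-type arrays, by a narrow margin. The fit gave a difference of -0.22 ± 0.09 (SE), with an interval of -0.42 to -0.01 and an adjusted p of 0.809. Without wild type replicate 2 it was -0.12.

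Sult1d1, which acts on catecholamines, was dimmer, with 23.8, 31.9 and 28.8 in wild type and 22.1, 23.2 and 23.8 in Scnn1b-Tg. Its difference was -0.28 ± 0.10 (SE), with groups that just overlapped. Sult5a1 (0.11 ± 0.08) and the cholesterol sulfotransferase Sult2b1 (0.01 ± 0.07) were brighter than 30 and overlapped; Sult5a1 gave 0.06 with wild type replicate 3 omitted and 0.20 with replicate 2 omitted. Sult1c1 and Sult6b1 had separate groups, but at intensities of 19.6 to 22.2 and with log2 fold changes of -0.04 and -0.05.

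The 8 UDP-glucuronosyltransferases, all of the Ugt2 family and all on chromosome 5, were near the floor of these arrays. These enzymes attach glucuronic acid to steroids, bile acids and drugs, chiefly in the liver. Their intensities were between 19.5 and 28.3 on every array, and the log2 fold changes between -0.09 and 0.03. Ugt2b37 had 25.8 to 28.3, a difference of 0.02 ± 0.05 (SE).

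Wild type replicate 2 was the highest of the 6 arrays for more members than any other array. Of the 48 members with a mean intensity of at least 30, 18 (37.5%) had their highest value there, against 16.9% of the 14818 genes at or above that intensity. They include Gsta3, Gsta4, Fmo1, Fmo2, Mgst1, Aldh1a1, Aldh3b3, Aox3 and Sult1a1. Scnn1b-Tg replicate 3 was the highest for 13 members (27.1%, against 26.7%).

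**Figure D3:**
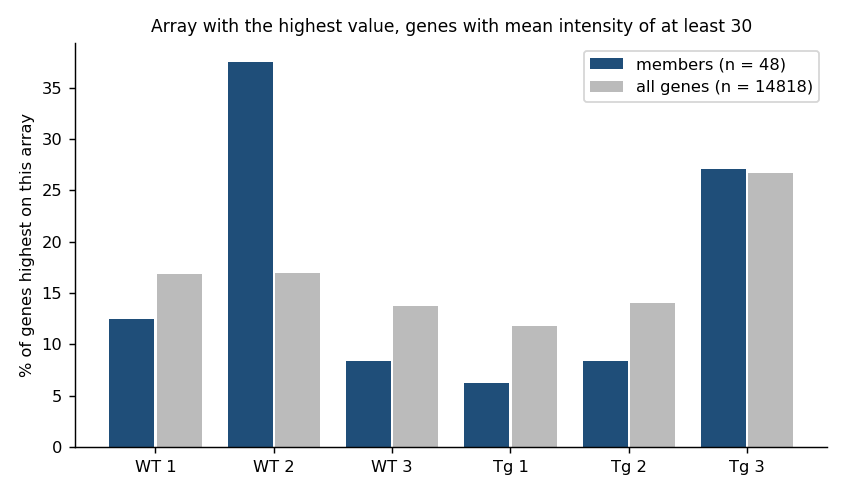
Share of genes (y axis, percent) whose highest value of the 6 arrays lies on the array named on the x axis, for the 48 members (blue) and all 14818 genes (grey) with a mean intensity of at least 30. Wild type replicate 2 (WT 2) holds 37.5% of the members against 16.9% of all genes.

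Club cell markers lay lower in Scnn1b-Tg, on the same arrays as Gsta3 and Fmo1. All 8 club cell markers had a negative log2 fold change (median -0.30). Of these, 5 had an unadjusted p under 0.05 (against 2.05% of all genes on the lower side) and 0 an adjusted one. For 4 of the 8 the Scnn1b-Tg arrays lay wholly below wild type (against 4.41% of all genes). The summed intensity of the 8 was 7683 to 9117 in wild type and 6538 to 6864 in Scnn1b-Tg. In such sums bright genes weigh most, here Scgb1a1 and Cyp2f2. Their mean log2 deviation from the mean of the 6 arrays was 0.01, 0.27 and 0.21 on wild-type replicates 1 to 3 and -0.23, -0.20 and -0.06 on those of Scnn1b-Tg. Gsta3 deviated by -0.07, 0.80 and 0.25 and by -0.32, -0.41 and -0.24, and Fmo1 by -0.04, 0.34 and 0.24 and by -0.15, -0.14 and -0.26. Within wild type, Gsta3, Fmo1 and the marker mean were thus all lowest on replicate 1 and highest on replicate 2. Within Scnn1b-Tg the marker mean and Gsta3 were both highest on replicate 3, where Fmo1 was lowest. Gsta3 was lowest on replicate 2 and the marker mean on replicate 1. The marker list was chosen with earlier results of these data known. The part of club cells in these values was not tested.

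Macrophage markers lay higher in Scnn1b-Tg, as did Gsto1. All 6 had a positive log2 fold change (median 0.35), and 5 had separate groups (against 6.26% of all genes on the higher side). Their summed intensity was 646 to 663 in wild type and 800.1 to 909 in Scnn1b-Tg. Gsto1 deviated by -0.07, -0.18 and -0.09 on the wild-type arrays and by -0.02, 0.21 and 0.15 on the Scnn1b-Tg arrays, where the macrophage mean was 0.28, 0.11 and 0.25. Among the Scnn1b-Tg arrays Adgre1 and Itgam were highest on replicate 1, where Gsto1 was lowest. Marco, Mrc1, Cd68 and Csf1r were highest on replicate 3. This list too was chosen with earlier results of these data known. The part of macrophages in these values was not tested.

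The other marker lists give limits for all members. The 5 markers of cardiac-type muscle were all lower (summed 1020 to 1287 in wild type and 719 to 1011 in Scnn1b-Tg), lowest on Scnn1b-Tg replicate 3. Adipoq, a fat cell marker, was 44.3 on that array and 22.0 to 23.8 on the others. Squamous epithelium markers were near the floor (summed 137 to 145 and 138 to 142, over 5 genes). Markers of alveolar type 2, alveolar type 1, ciliated and endothelial cells and fibroblasts had medians between -0.03 and 0.01, with 0 of them at an unadjusted p under 0.05. Of the T and B cell markers 4 of 5 were higher, with a median of 0.16. Their part in the members' values was not tested.

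**Figure D4:**
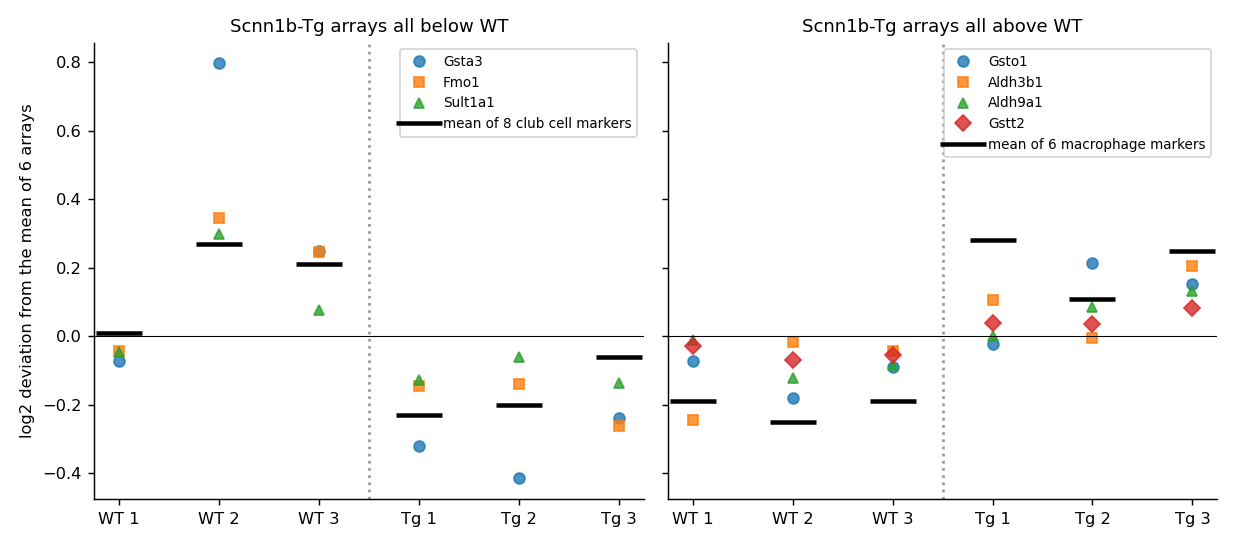
Log2 deviation from the mean of the 6 arrays (y axis) on each array (x axis) of Gsta3, Fmo1 and Sult1a1 (left) and Gsto1, Aldh3b1, Aldh9a1 and Gstt2 (right). Their Scnn1b-Tg (Tg) arrays lay wholly below (left) or above (right) wild type (WT). The dim Fmo9, Sult1c1 and Sult6b1, also wholly below, are not shown. Black bars are the mean of the 8 club cell (left) or 6 macrophage (right) markers. Gsta3 reaches 0.80 on WT 2, where the club cell mean is 0.27.

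Among genes around these enzymes, those that supply and use glutathione stood on the higher side. Of 12 listed 10 were measured, 7 were positive and 0 were called. Those higher at an unadjusted p under 0.05 numbered 4 (against 3.96% of all genes), all with separate groups (against 6.26%). The median was 0.13, against 0.01 over all genes, and the list was chosen with earlier results of these data known. Gclc, the catalytic subunit of the rate-limiting enzyme of glutathione synthesis, had 236, 265 and 244 in wild type and 281, 342 and 322 in Scnn1b-Tg. All Scnn1b-Tg arrays lay above wild type, for a difference of 0.34 ± 0.08 (SE) and an adjusted p of 0.459.

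Slc7a11, the cystine importer, had 28.8, 26.2 and 26.8 in wild type and 34.1, 33.6 and 33.2 in Scnn1b-Tg, which gives a difference of 0.30 ± 0.05 (SE). Its groups were well apart for so dim a gene; the adjusted p was 0.205, and over the alternatives it ran from 0.0523 to 0.634. With 16 subtracted from every intensity its log2 fold change was 0.65. Gsr, which regenerates reduced glutathione, gave 0.25 ± 0.06, and the glutathione peroxidase gene Gpx1 gave 0.27 ± 0.07. The modifier subunit gene Gclm was -0.03 ± 0.06 and the synthetase Gss -0.06 ± 0.05.

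The lists for the other cofactors and steps were near 0. Genes for UDP-glucuronate and PAPS, the sugar and sulfate donors, had 4 of 7 positive, a median of 0.01 and 0 at an unadjusted p under 0.05, with the largest value for Papss1 (-0.11 ± 0.08, and -0.05 without wild type replicate 1). Other oxidoreductases and hydrolases had 7 of 14 positive and a median of 0.01. In that list Ces1d, a carboxylesterase, had 1052, 1185 and 1075 in wild type and 919, 938 and 961 in Scnn1b-Tg. The groups were apart, at -0.23 ± 0.06 (SE) and an adjusted p of 0.475. Other conjugating enzymes had 3 of 7 positive, and the methyltransferase Inmt spread from 1819 to 4221 within wild type, with wild type replicate 2 highest.

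Retinoid handling genes had 8 of 12 positive and a median of 0.03. Dhrs9, a retinol dehydrogenase, was 0.22 ± 0.05 (SE) with separate groups at 31.4 to 32.6 and 35.95 to 39.0, and 0.41 with 16 subtracted from every intensity. Rarb, a retinoic acid receptor gene that retinoic acid itself induces, was -0.19 ± 0.07 with groups that overlapped. The adjusted p of Rarb was 0.764, and a link between Rarb and Aldh1a2 was not tested. Regulators had 8 of 10 positive (median 0.04), with Rxra at 0.27 ± 0.08 (0.15 without wild type replicate 2 and Scnn1b-Tg replicate 3 together) and the NRF2 gene Nfe2l2 at 0.06 ± 0.07. Efflux pumps had 5 of 8 positive (median 0.07), with the largest value for Abcg2 (-0.15 ± 0.07, and -0.08 without the same 2 arrays).

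**Figure D5:**
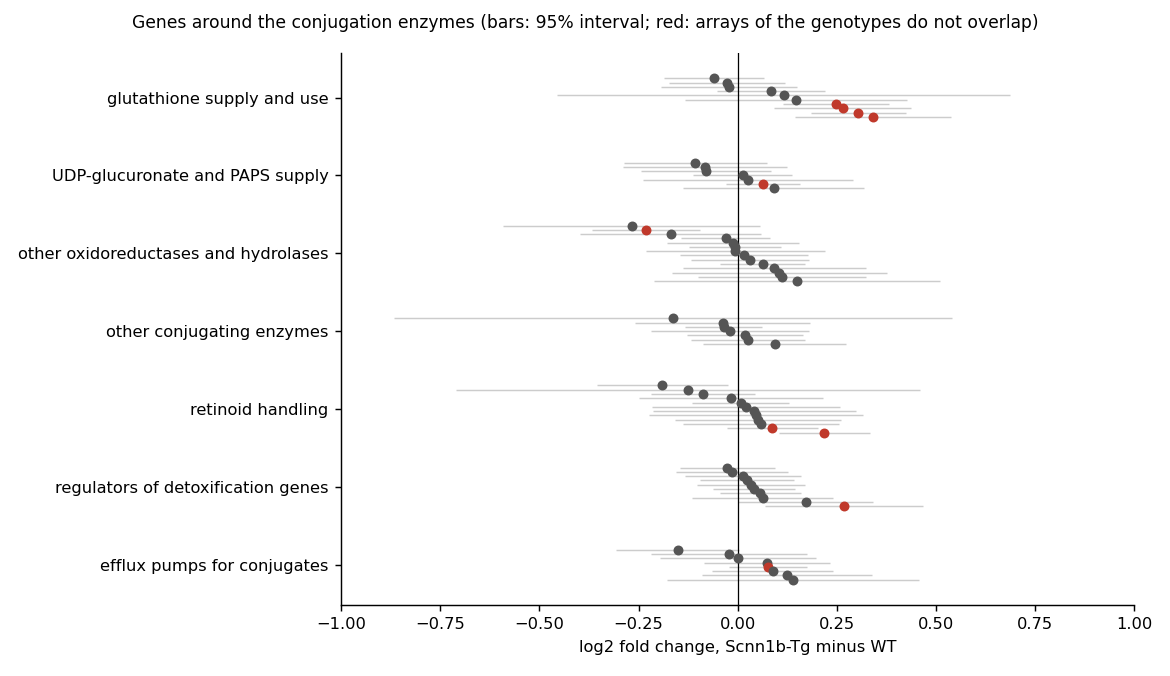
Log2 fold change (Scnn1b-Tg minus WT, x axis) with 95% interval for each measured gene of 7 lists around the conjugation enzymes (y axis); red points are genes whose 3 arrays of each genotype do not overlap. The 4 red points of the glutathione list lie between 0.25 and 0.34.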

How the data were processed

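Per the labels' protocols, whole-lung total RNA underwent Affymetrix whole-transcript sense labelling before hybridisation. The deposited intensities are RMA values made by the authors, per the submitters' processing notes, with no RMA version or setting given in the sources used here. The linear scale was read from the values. Of 28815 probe sets, 21780 had exactly 1 symbol in the platform annotation; the brightest per gene was kept, leaving 19935 genes. All 76 members matched RefSeq by Entrez identifier.

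Each gene's log2 intensity was modelled on genotype alone in limma 3.58.1 (R 4.3.3; 6.99 moderated degrees of freedom). Two-sided p-values were adjusted by Benjamini-Hochberg across the 19935 genes, with a threshold of 0.05. The fit was tested on simulated data. Members and lists were chosen with earlier results of these data known. Genes were named by a rule: in each family the brightest member and the largest 2 values among members with a mean intensity of at least 30, members with an unadjusted p under 0.05 and separate groups, and of each list genes with an unadjusted p under 0.05 or else the largest value. Further members are given as values. No batch is given in the labels. Alternatives were other normalizations, filters, probe set rules, variance models, a replicate block and arrays left out. No 2 arrays held the same values. The number of arrays limits the precision.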

Additional observations from a re-analysis of the deposited data

How the results depend on the processing

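The count of 0 called members held in every alternative run, as did the sign of Gsta3, Gsta4, Fmo1, Sult1a1, Gstm1, Gsto1, Gstt2, Aldh1a2, Aldh3b1, Aldh9a1, Gclc, Gsr, Gpx1 and Slc7a11. Of these genes only Gsta4, Gstm1 and Aldh1a2 had overlapping groups. For the rest, leaving arrays out could not turn the sign. The dim filter, the probe set rules, the intensity trend and the replicate block left these log2 fold changes as they were, wherever the gene was kept. Over all genes the count of called genes was 1. It was 39 with the dimmest 6645 genes left out, which also removed 32 members, 36 with an intensity trend and robust variance, 23 with 16 subtracted, 6 without wild type replicate 2 and Scnn1b-Tg replicate 3, and 0 to 5 with single arrays left out. The cause of these shifts was not tested. With median centring the members' median log2 fold change was -0.04, against -0.02 over all genes. Members with separate groups numbered 4 higher and 6 lower. With median centring they were 3 and 9, and with quantile normalization 3 and 5. Without both of those arrays they were 13 and 13, and with single arrays left out 5 to 8 and 7 to 16, since fewer arrays separate more easily; without the dimmest genes 3 were lower. Deviations of same-numbered arrays correlated at 0.03, 0.03 and 0.04 across genes, and those of other pairs at -0.06 to 0.02. So few arrays cannot decide whether the replicate number marks a pairing. With the replicate block 3 genes and 0 members were called.

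Signs turned only for values near 0 against their error. Leaving out single arrays gave -0.24 to 0.12 for Aldh1a1, -0.23 to 0.11 for Fmo2, -0.066 to 0.31 for Aox3, -0.025 to 0.049 for Aox2, -0.25 to 0.045 for Gstm5, -0.017 to 0.26 for Gstp1, -0.062 to 0.093 for Gstp3, -0.041 to 0.15 for Gstt1, -0.17 to 0.039 for Mgst1, -0.50 to 0.11 for Inmt and -0.0044 to 0.062 for Ugt2b37. Without both arrays named above Aldh1a1 was 0.16, Fmo2 0.22, Gstp1 -0.055 and Inmt 0.26. Quantile normalization gave 0.0034 for Aldh1a1, array weights 0.0062 for Fmo2, and median centring -0.0047 for Aox2 and -0.0074 for Ugt2b37. The cause was not tested. Signal over background is low for the 28 members with a mean intensity under 30.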

Other observations

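Probe sets that list several symbols, at least 1 of them from these families, numbered 10 and were not used for members. The probe set with 8 symbols of the Ugt1 locus had 47.5, 49.3 and 44.8 in wild type and 45.2, 48.3 and 51.4 in Scnn1b-Tg, well above the array floor, unlike the probe sets of the Ugt2 members. Its log2 fold change was 0.03 ± 0.06 (SE). The groups overlapped.

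The 4 probe sets shared by alpha-class transferase symbols had values between 28.6 and 39.6 and log2 fold changes from -0.08 to -0.03, against -0.65 for the probe set of Gsta3 alone. The 2 shared by pi-class symbols gave 0.07 ± 0.09 and 0.10 ± 0.09, with Scnn1b-Tg replicate 3 the highest array in both (116 and 115), as it was for Gstp1.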
